A study of Sus scrofa with 22 samples.

Results

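Glycosyltransferases build the sugar chains of mucins, other glycoproteins, glycolipids and proteoglycans in the secretory pathway, and glycan sulfotransferases decorate those chains with sulfate. Chains are started by one enzyme family, elongated and branched by others, and capped with sialic acid, fucose or sulfate, so that the set of enzymes a cell expresses shapes its surface coat. On the luminal face of the uterus this coat carries transmembrane mucins and is the first maternal layer that the conceptus meets. The genes described here were taken by their symbols from the count tables of porcine endometrium on Day 12: the GALNT, ST3, ST6 and ST8 sialyltransferase, FUT, B3GNT, B3GALT, B4GALT, GCNT, MGAT, CHST, EXT, EXTL, NDST and HS2ST, HS3ST and HS6ST families, together with GLCE, C1GALT1, MUC1, MUC4, MUC16 and MUC20. This rule found 83 of the 12401 genes listed in any of 3 tables, of which 59 were listed in all 3, 15 in 2 and 9 in 1. A further 34 annotated genes that fit the rule, MUC20 among them, were in no table and were not analysed here, and no gene carried the symbol MUC16 in the annotation used.

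The luminal (LE) and the glandular (GE) epithelium and stromal areas (S) were captured with a laser from cresyl violet stained frozen sections of the endometrium of 8 gilts, and each capture gave 1 RNA-seq library. The gilts were prepuberal German Landrace and Piétrain crossbreeds whose ovulation had been synchronized with PMSG and hCG. The pregnant group (gilts 01, 03, 05 and 14) had been inseminated, the control group (gilts 02, 04, 06 and 13) was cyclic and had received only the supernatant of semen from the same boar, and all endometria were taken on Day 12. Libraries of 4 pregnant and 4 control gilts were analysed in LE and GE and of 3 of each in S, where gilts 03 and 06 were not analysed here. Libraries started from RNA of few cells, and stromal areas hold fibroblasts together with other cells, so that each value is an average over a small captured area. In such material fewer cells of a type and less RNA per cell cannot be told apart.

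The 22 libraries held 893912 to 4020796 counts. Levels are given as CPM, counts relative to library size on 1 scale set over the 10643 genes common to the 3 tables, and 3 counts corresponded to 0.703 to 3.61 CPM depending on the library. In LE a member was called at a false discovery rate (FDR, Benjamini-Hochberg) below 0.01, and in GE and S at an unadjusted p below 0.0021, in edgeR's quasi-likelihood test on all genes of the table. Fold changes (log2 FC) are pregnant minus control on the log2 scale with their standard error (SE).

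Marker levels did not follow the labels of the captured areas throughout. Whether captures or labels of the S libraries were exchanged cannot be told from these data, so that S below means the libraries labelled S. The summed level of 10 epithelial markers, all listed in each table, was 3074 to 3835 CPM in control LE, 3424 to 4804 in pregnant LE, and 2881 to 3419 in the control libraries labelled S, which therefore held as much epithelial signal as LE. The 10 fibroblast markers summed to 4829 to 8731 CPM in control S, below the 11905 to 17535 CPM of control LE. Pregnant S gilts 05 and 14 had 8348 and 12181 CPM of fibroblast markers, within the 7964 to 21165 CPM of pregnant LE. Their epithelial sums were 4409 CPM, within the range of pregnant LE, and 2449 CPM, below it. Pregnant S gilt 01 stood apart with 60458 CPM of fibroblast and 1259 CPM of epithelial markers, as did control GE gilt 02 with 46800 and 847 CPM. The smooth muscle sum, over 3 listed markers, was 5126 CPM in pregnant LE gilt 01, whereas the other LE libraries lay at or below 642 CPM. In GE, over 5 listed markers, it was 8318 CPM in control gilt 02 and 14.8 to 352 CPM in the other controls. Pregnant GE libraries had 464 to 2265 CPM, with gilt 01 highest. Pregnant GE gilt 01 also held 30194 CPM of fibroblast markers, and the other pregnant GE libraries 10388 to 14695 CPM. Sums over the 5 or 6 listed leukocyte markers stayed between 68.7 and 188 CPM in all libraries, with CD2, CD3D, CD3E and NKG7 in no table, and sums over 6 listed blood endothelial markers lay between 64.9 and 1828 CPM. In LE itself 7 of the 10 epithelial markers were called in either direction: CDH1, CLDN3, CLDN4 and ELF3 were higher and KRT7, KRT8 and KRT19 lower in pregnant gilts. The part of these marker differences in the results was not tested, and calls in GE and S are given also without gilt 02 and gilt 01.

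In LE, 12 of the 72 listed members were called, 9 higher and 3 lower in pregnant gilts. Of all 11415 genes listed in LE, 10.0% were called, 6.33% higher and 3.71% lower, against 12.5% and 4.17% of the members. The median log2 FC of the members was 0.10, and that of all genes was 0.01. Both mucins, the initiating enzyme GALNT1, the chain-extending enzymes B3GNT2, B3GNT7 and B4GALT5, the N-glycan branching enzyme MGAT4A, FUT4 and the heparan sulfate sulfotransferase HS6ST1 were higher. FUT10, NDST3 and MGAT4D were lower. No sialyltransferase (0 of 13 listed), no carbohydrate sulfotransferase of the CHST family (0 of 6) and neither C1GALT1 nor GCNT1 was called by this test, and at an unadjusted p below 0.05 these were 3, 0 and 0 genes, where 35.6% of all LE genes passed.

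**Figure D1:**
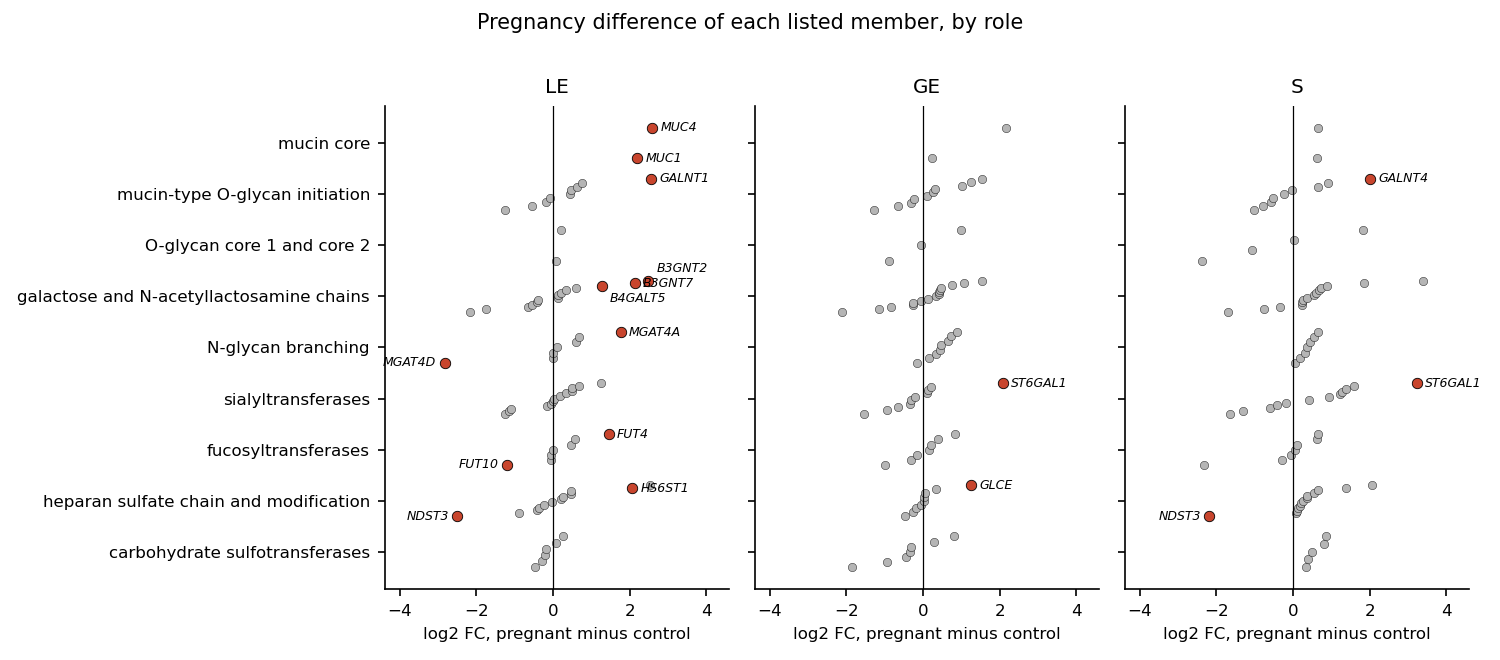
Pregnancy difference of every listed member, as log2 FC (pregnant minus control, horizontal axis), by role (rows) in LE, GE and S (panels). Each point is 1 gene and red points are called members, which number 12 in LE, 2 in GE and 3 in S.

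In LE the mucins and GALNT1 had the largest called increases together with B3GNT2. MUC1, a transmembrane mucin of apical epithelial surfaces, measured 228, 264, 199.7 and 264 CPM in the LE of control gilts 02, 04, 06 and 13. Pregnant gilts 01, 03, 05 and 14 had 1026, 852, 1475 and 1047 CPM. Every pregnant library lay above every control library, and the means differed 4.6-fold (log2 FC 2.20, SE 0.21, FDR = 0.000128). MUC4, a larger transmembrane mucin, was at 73.7, 49.8, 35.3 and 82.9 CPM in control LE. In pregnant LE its levels were 260.2, 457, 428 and 305 CPM, again without overlap (log2 FC 2.58, SE 0.30, FDR = 0.00036). GALNT1 encodes an N-acetylgalactosaminyltransferase that places the first sugar of mucin-type O-glycans. Its control LE levels were close together at 155, 158, 167 and 144 CPM. The pregnant LE libraries spread from 511 to 1296 CPM with gilt 01 lowest, and the means differed 5.92-fold (log2 FC 2.56, SE 0.27, FDR = 0.000234).

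The 250 bases before the annotated starts of 5 members are shown because these genes carry large called rises (MUC1, MUC4 and GALNT1 in LE, ST6GAL1 in GE and S) and a large fall (NDST3 in LE and S). They were read from the Sscrofa11.1 genome in the direction of the gene, 5′ to 3′, from chr4:94626067-94626316 (+ strand) for MUC1, chr13:134192162-134192411 (+ strand) for MUC4, chr6:119295646-119295895 (+ strand) for GALNT1, chr13:124699372-124699621 (+ strand) for ST6GAL1 and chr8:105370068-105370317 (- strand) for NDST3. Capitals mark matches, on either strand, to the GC box (GGGCGG), the CCAAT box (CCAAT), the TATA box (TATAAA) or the NF-kappa-B motif.
MUC1: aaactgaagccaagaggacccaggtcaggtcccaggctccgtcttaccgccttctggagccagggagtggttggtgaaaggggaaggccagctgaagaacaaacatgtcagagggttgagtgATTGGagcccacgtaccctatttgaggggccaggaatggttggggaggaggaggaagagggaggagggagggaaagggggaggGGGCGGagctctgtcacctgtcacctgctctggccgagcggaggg
MUC4: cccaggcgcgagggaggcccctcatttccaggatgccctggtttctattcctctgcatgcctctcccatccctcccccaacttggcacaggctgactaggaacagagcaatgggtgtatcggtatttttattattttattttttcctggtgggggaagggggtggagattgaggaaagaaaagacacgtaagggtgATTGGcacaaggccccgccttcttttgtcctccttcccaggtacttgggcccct
GALNT1: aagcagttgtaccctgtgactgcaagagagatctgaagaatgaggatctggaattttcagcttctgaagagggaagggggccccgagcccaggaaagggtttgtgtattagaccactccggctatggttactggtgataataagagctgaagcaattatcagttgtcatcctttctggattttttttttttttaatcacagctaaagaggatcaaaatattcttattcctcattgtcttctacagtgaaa
ST6GAL1: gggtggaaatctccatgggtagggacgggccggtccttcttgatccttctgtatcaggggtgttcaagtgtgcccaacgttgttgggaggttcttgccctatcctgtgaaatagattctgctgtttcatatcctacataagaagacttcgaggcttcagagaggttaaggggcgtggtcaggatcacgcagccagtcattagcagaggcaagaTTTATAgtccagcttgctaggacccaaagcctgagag
NDST3: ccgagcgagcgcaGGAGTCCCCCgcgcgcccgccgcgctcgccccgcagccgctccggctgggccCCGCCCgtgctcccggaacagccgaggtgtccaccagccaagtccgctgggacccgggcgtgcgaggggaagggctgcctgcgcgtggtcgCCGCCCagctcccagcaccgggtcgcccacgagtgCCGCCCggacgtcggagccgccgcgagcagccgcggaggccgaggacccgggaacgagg
MUC1 held a GC box 45 bases and a CCAAT box 128 bases before its start, and MUC4 a CCAAT box 54 bases before. ST6GAL1 had a TATA box match 37 bases before its start, which lay on the opposite strand. NDST3 had 3 GC boxes and 1 NF-kappa-B motif, and the GALNT1 window matched none of the motifs searched. The CCAAT boxes of MUC1 and MUC4 and the matches of NDST3 also lay on the strand opposite to the gene. Of the windows of 12397 genes in the tables, 55.6% held a GC box, 32.6% a CCAAT box, 7.39% a TATA box and 5.75% an NF-kappa-B motif. The 83 member windows held them in 54.2%, 34.9%, 9.64% and 7.23%. The STAT motif (TTCNNNGAA) occurred in 7.23% of member and 5.69% of all windows. An AP-1 motif (TGANTCA), present in 4.12% of all windows, and the estrogen response element palindrome, present in 1 of all 12397, were found in no member window. These matches describe the letters of the windows only.

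**Figure D2:**
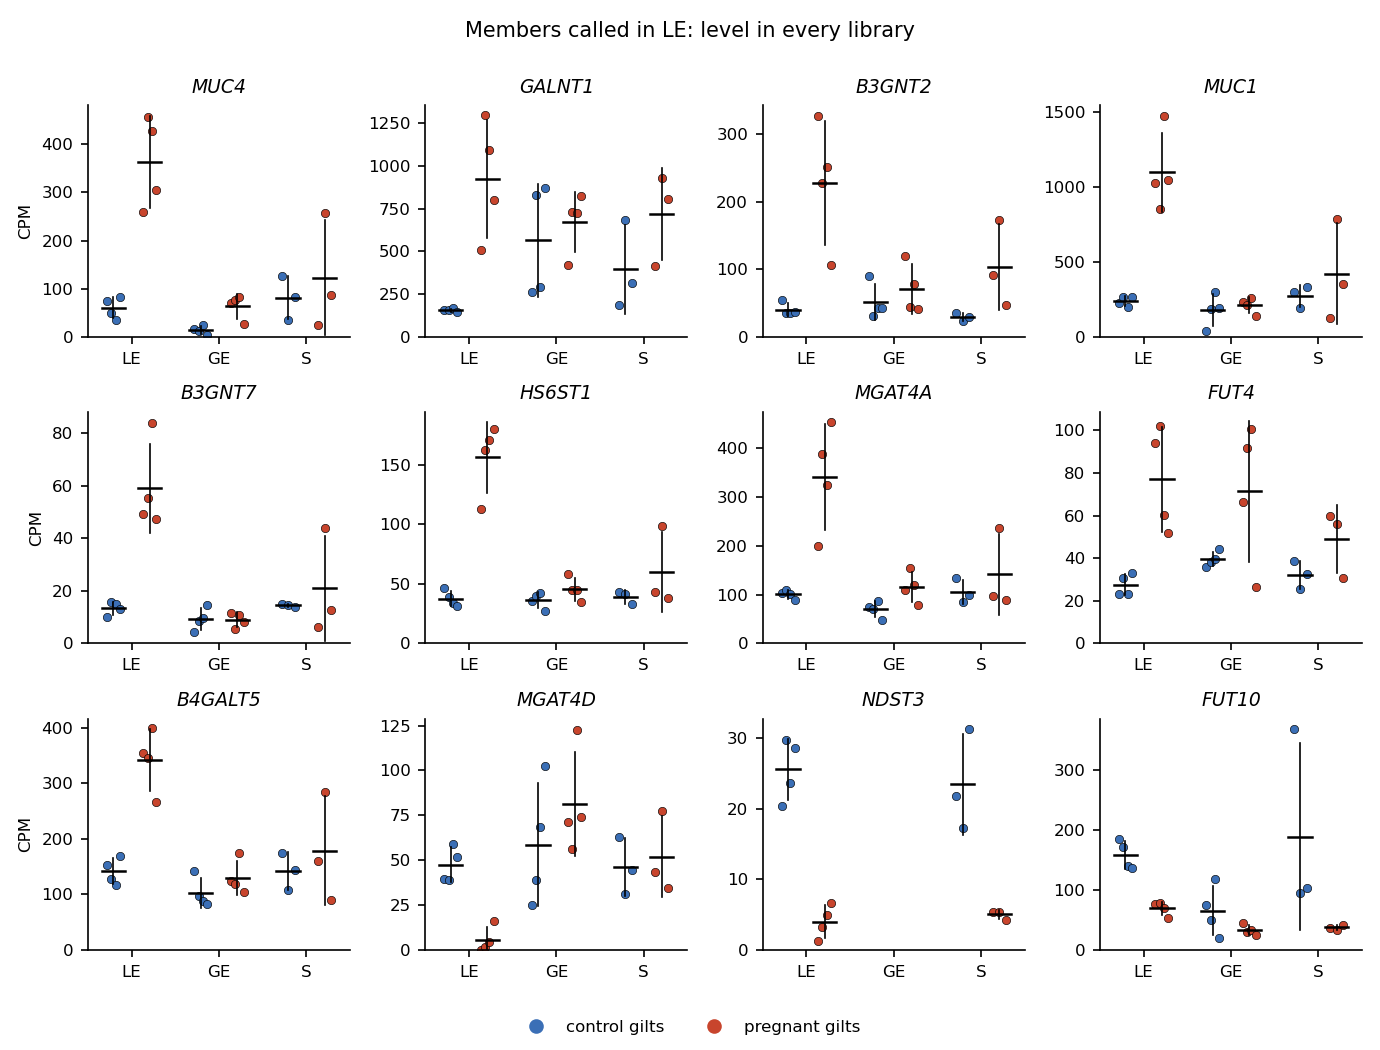
CPM (vertical axis, linear, from 0) of the 12 members called in LE, in every library of LE, GE and S. Points are libraries (blue control, red pregnant), horizontal bars are means and vertical bars 1 SD. The genes were drawn because they were called in LE, where the pregnant and control points of each do not overlap. In GE the points overlap for every gene drawn except MUC4, and NDST3 was not listed there. The share of all genes without overlap is not given here. The LE against GE interaction called 0 of 59 members at FDR below 0.01.

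Among enzymes that extend galactose and N-acetyllactosamine chains, 3 of 14 listed members were higher and none lower in LE. Of all LE genes, 6.33% were higher and 3.71% lower. B3GNT2, the main enzyme of poly-N-acetyllactosamine extension, had 54.5, 35.4, 36 and 36.3 CPM in control LE. The pregnant libraries had 328, 228, 252 and 106 CPM, with gilt 14 well below the others but above each control (log2 FC 2.48, SE 0.32, FDR = 0.000612). B3GNT7, which extends sulfated lactosamine chains, was low in control LE at 10.2 to 15.8 CPM. It reached 47.5 to 83.9 CPM in pregnant LE (log2 FC 2.13, SE 0.25, FDR = 0.000375). Part of its annotated exons overlaps an uncharacterized gene, LOC110257014, and 14.5% of its 50-base exon windows are shared with it, so that its reads could be split. B4GALT5, known as a lactosylceramide synthase, measured 152, 128, 116 and 168 CPM in control and 354, 346, 400.2 and 266 CPM in pregnant LE (log2 FC 1.27, SE 0.19, FDR = 0.0012). B3GNT5, which starts lacto-series glycolipids, was not called in LE, with 122 to 167 CPM in control and 145 to 205 CPM in pregnant gilts. B4GALT1, the highest member of this role per exon length in every group except pregnant LE, where B4GALT5 was above it (63.8 against 48.9 CPM per kilobase), was not called either. Its pregnant LE libraries divided into gilts 01 and 03 at 93.9 and 91.3 CPM and gilts 05 and 14 at 281 and 395 CPM, against 265 to 326 CPM in controls.

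Of 7 listed N-glycan branching genes 1 was called higher and 1 lower in LE, and the same held for 7 listed fucosyltransferases. Of all LE genes, 6.33% were higher and 3.71% lower. MGAT4A, which adds a branch to the core of complex N-glycans, had 103, 109, 102 and 88.5 CPM in control LE. Pregnant LE had 199.9, 388, 324 and 454 CPM (log2 FC 1.76, SE 0.24, FDR = 0.000836). MGAT4D, a related gene whose product is known as an inhibitor of the first branching enzyme, went the other way. It measured 39.5, 39.2, 59.3 and 51.8 CPM in control LE. In pregnant LE it was at 0, 1.59, 4.63 and 16.2 CPM, the first of these being 0 counts in the shallowest library, which allows up to 3.61 CPM (log2 FC -2.83, SE 0.61, FDR = 0.00903). This call was lost when any of gilts 02, 03, 04, 05, 06 or 13 was left out, with FDR of at most 0.0323. FUT4, a fucosyltransferase of Lewis x structures, rose from 23.3 to 33 CPM to 51.6 to 102 CPM (log2 FC 1.45, SE 0.25, FDR = 0.00301), and without control gilt 02, 04 or 06 its FDR reached at most 0.0139. FUT10, on an unplaced scaffold of the assembly, was at 136 to 185 CPM in control and 53.8 to 78.1 CPM in pregnant LE (log2 FC -1.20, SE 0.18, FDR = 0.00133). FUT2, the secretor enzyme and highest fucosyltransferase per length, shares 25.6% of its exon windows with FUT2A, so that its level is uncertain. It had 91.8 to 149 and 120.4 to 184 CPM and was not called (FDR = 0.144).

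Of 12 listed genes of heparan sulfate chains, 1 was higher and 1 lower in LE, against 6.33% and 3.71% of all LE genes. HS6ST1, which adds sulfate to the glucosamine residues of heparan sulfate, measured 46.3, 39.2, 34.2 and 31.2 CPM in control LE. In pregnant LE it measured 113, 162, 171 and 180.2 CPM, 4.15-fold higher by the means (log2 FC 2.06, SE 0.20, FDR = 0.000152). NDST3, one of the N-deacetylase and N-sulfotransferase genes that open heparan sulfate modification, had 20.3, 29.7, 23.6 and 28.6 CPM in control LE. It had only 1.2, 3.19, 4.94 and 6.65 CPM in pregnant LE, where gilt 01 held 1 count (log2 FC -2.50, SE 0.36, FDR = 0.00103). Its relatives NDST1 and NDST2 were not called. EXT2, part of the polymerase of the chain and the highest gene of this role per length in control LE (HS6ST1 in pregnant LE), had 54.1 to 72.6 CPM in control and 47.5 to 125 CPM in pregnant LE (FDR = 0.506). HS3ST5 had a large but variable difference, with 0.376, 9.25, 6.7 and 2.11 CPM in control and 44.6, 25.5, 41.7 and 1.27 CPM in pregnant LE, and was not called (log2 FC 2.54, SE 0.91, FDR = 0.0697); it is named after its values were seen.

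Leaving out pregnant gilt 01, the shallowest LE library and the one with smooth muscle signal, gave 16 called members, 10 higher and 6 lower, when 10.1% of all genes were called in the same fit (6.57% higher, 3.54% lower). The call rule passed at FDR 0.00903 for MGAT4D, the last member inside it, and ST3GAL5 (FDR = 0.0113) and ST3GAL6 (FDR = 0.0125) were the first outside. These sialyltransferases pointed in opposite directions, ST3GAL5 with 9.6 to 16.3 CPM in control and 19.3 to 42.1 CPM in pregnant LE, and ST3GAL6 with 48.3 to 84.1 and 22.2 to 47 CPM.

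Expressed per kilobase of exon, so that genes can be compared, the make-up of several families differed between the groups in LE. GALNT1 made up 23.7% ± 1.11 (SD, n = 4) of the summed level of the 9 listed GALNT genes in control LE and 60.9% ± 11.1 in pregnant LE. In GE its share was 47.3% ± 12.8 in control and 49.8% ± 3.53 in pregnant gilts. Within the 5 listed B3GNT genes of LE, B3GNT5 held 52.9% ± 2.56 in control and 26.1% ± 5.23 in pregnant gilts, while B3GNT2 held 17.3% ± 3.07 and 41.4% ± 9.27. B4GALT5 made up 19.8% ± 3.41 of the 6 B4GALT genes in control LE and 44.3% ± 12 in pregnant LE. MGAT4A and MGAT4B were at 27.3% ± 3.49 and 59.8% ± 5.79 of 3 listed MGAT4 genes in control LE. In pregnant LE the share of MGAT4A was 49.3% ± 6.24. NDST3 provided 20.6% ± 3.86 of the summed NDST level in control LE and 3.75% ± 2.18 in pregnant LE. These shares are descriptions of the same counts and carry no test of their own.

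In GE, 2 of the 71 listed members were called, both higher in pregnant gilts, against 0.694% of all 11676 genes listed in GE (0.574% higher, 0.120% lower). None passed an FDR of 0.05 in edgeR's quasi-likelihood test (0.0171% of all genes did), 13 members had an unadjusted p below 0.05 (8.09% of all genes did), and DESeq2 called 6 members at the same p threshold (2.08% of all genes). ST6GAL1, which caps the lactosamine of N-glycans with sialic acid, had 57.6, 63.6, 33.6 and 86.8 CPM in control GE. In pregnant GE it had 235, 382, 151 and 260.4 CPM, with no overlap and a 4.26-fold difference of means (log2 FC 2.09, SE 0.36, FDR = 0.138). Without control gilt 02 its log2 FC was 2.08 (FDR = 0.2 in edgeR), and the call was kept whichever gilt was left out. Of its exon windows, 30.9% are shared with the overlapping gene LOC100519216, so that its level is uncertain. GLCE, the epimerase that turns glucuronic acid of heparan sulfate into iduronic acid, measured 91.6, 75, 92.4 and 99.9 CPM in control GE. Pregnant GE measured 202, 239.8, 276 and 134 CPM (log2 FC 1.24, SE 0.24, FDR = 0.189). Without gilt 02 GLCE gave 1.27 (FDR = 0.23 in edgeR), and its call was lost without gilt 03, 04 or 05. The number of called members was 5 without gilt 13 (0.856% of all genes). It was 1 without gilt 03, 04 or 05, with the share of all genes in these fits not given here.

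The members nearest to the threshold in GE were MGAT4B and MUC4. MGAT4B, a close relative of MGAT4A and the highest N-glycan branching gene per length in every group except pregnant LE, where MGAT4A had 40.2 and MGAT4B 39.8 CPM per kilobase, had 49.1, 59.1, 50.9 and 82.9 CPM in control and 97.8, 134, 109 and 111 CPM in pregnant GE (log2 FC 0.90, SE 0.21, FDR = 0.306). MUC4 was at 16.6, 12.4, 24.7 and 3.01 CPM in control and 70.9, 76, 83 and 25.9 CPM in pregnant GE (log2 FC 2.17, SE 0.58, FDR = 0.362). MUC1 had 42.2 to 301 CPM in control and 142 to 263 CPM in pregnant GE, which overlapped (log2 FC 0.24, SE 0.48, FDR = 0.921). The 3 gland markers listed in GE summed to 664 to 3048 CPM in control and 1310 to 4728 CPM in pregnant gilts, and the epithelial sum was 847 to 2490 and 2535 to 3435 CPM. Their part in the ST6GAL1 and GLCE differences was not tested.

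**Figure D3:**
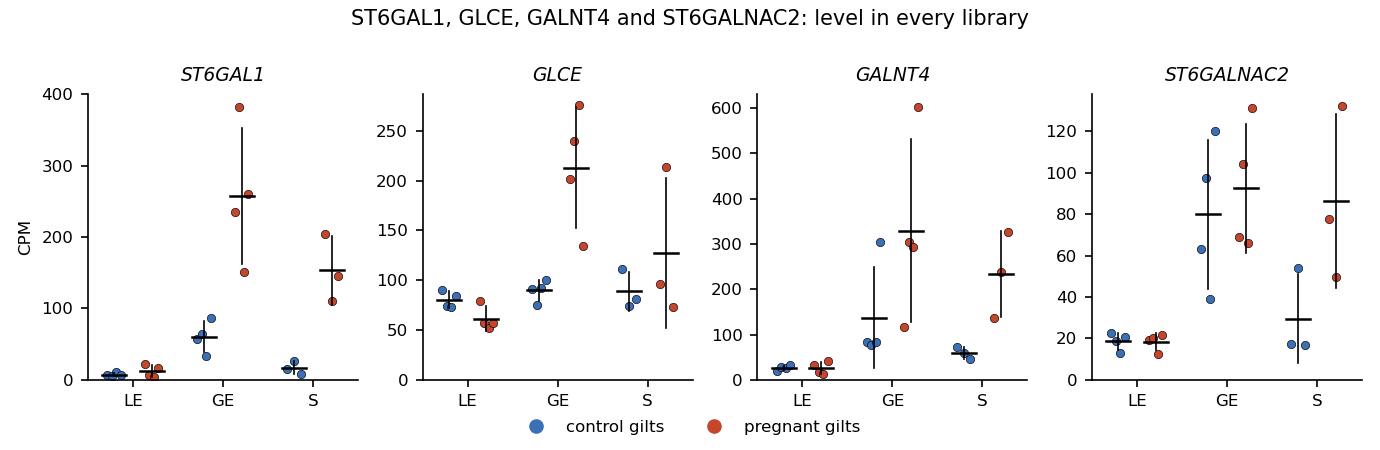
CPM (vertical axis, linear, from 0) of ST6GAL1, GLCE, GALNT4 and ST6GALNAC2 in every library of LE, GE and S. Points are libraries (blue control, red pregnant), bars are the mean and 1 SD, and ST6GAL1 stays at or below 22.9 CPM in all 8 LE libraries while it reaches 382 CPM in GE.

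In S, 3 of the 73 listed members were called, 2 higher and 1 lower, against 1.47% of all 11532 genes listed in S (0.425% higher, 1.05% lower). None passed an FDR of 0.05 in edgeR (0.251% of all genes did), 13 had an unadjusted p below 0.05 (12.5% of all genes did), and DESeq2 called 5 at the same p threshold (4.45% of all genes). ST6GAL1 had 15.6, 26.4 and 8.45 CPM in the S libraries of control gilts 02, 04 and 13. The libraries of pregnant gilts 01, 05 and 14 had 205, 109.8 and 146 CPM (log2 FC 3.23, SE 0.47, FDR = 0.0639). Without gilt 01 the log2 FC was 2.90 (FDR = 0.095 in edgeR), and the call was kept in all 6 fits that left out a gilt. GALNT4, another initiating enzyme of mucin-type O-glycans, measured 72.1, 59.7 and 45.6 CPM in control and 137, 238 and 326 CPM in pregnant S (log2 FC 2.01, SE 0.36, FDR = 0.107). It gave 2.24 without gilt 01 (FDR = 0.067 in edgeR) and was not called without gilt 02, 04, 05 or 13. NDST3 fell from 21.8, 17.3 and 31.2 CPM to 5.43, 5.36 and 4.29 CPM (log2 FC -2.19, SE 0.39, FDR = 0.105). Leaving out gilt 01 gave -2.29 (FDR = 0.126 in edgeR), and the call was lost without gilt 02, 05, 13 or 14. Without gilt 01, 5 members were called in S (1.50% of all genes). Without gilt 13 it was 1, with the share of all genes in that fit not given here.

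Marker levels varied among these S libraries, and the epithelial and gland sums of control and pregnant gilts overlapped. The epithelial sum was 3419, 2881 and 3383 CPM in control S and 1259, 4409 and 2449 CPM in pregnant S, in the order of the gilts. The 3 listed gland markers summed to 537, 658 and 193 CPM in control and 1393, 2921 and 465 CPM in pregnant S. The 4 listed lymphatic markers summed to 5.15 to 7.8 CPM in control and 27.6 to 241 CPM in pregnant S. ST6GAL1 and GALNT4 were both more abundant in GE than in LE, as described for the comparison of the cell types, and the part of captured gland cells in their S differences was not tested. Control S levels of NDST3 (17.3 to 31.2 CPM) overlapped those of control LE (20.3 to 29.7 CPM), and pregnant S levels overlapped those of pregnant LE. Neither mucin was called in S, where MUC1 had 298, 192 and 331 CPM in control and 125, 790.1 and 353 CPM in pregnant gilts and gilt 01 was lowest.

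C1GALT1, the enzyme that makes core 1 of mucin-type O-glycans, had group means between 59.3 and 74.2 CPM across the 6 groups and was called in no comparison. Levels that follow are means over both groups of gilts, per kilobase of exon. GCNT1, which branches core 1 into core 2, was the highest gene of its role per length in LE at 28.7 ± 7.62 CPM per kilobase (SD, n = 8), and its LE range of 326 to 707 CPM in control overlapped that of pregnant gilts. GCNT3, a further core 2 enzyme, had 10.8 ± 8.75 CPM per kilobase in GE and led this role there in pregnant gilts, whereas C1GALT1 led in controls. Among sialyltransferases ST6GALNAC4, which acts on O-glycans, was highest per length in LE, GE and S, at 57.9 ± 18.9, 56.6 ± 20.8 and 48.3 ± 19.3 CPM per kilobase. CHST14, a dermatan sulfate sulfotransferase, led the CHST genes at 8.72 ± 2.97 CPM per kilobase in LE, and EXTL3, which starts heparan sulfate chains, led its role in S (25.6 ± 3.16) and in control GE, with 38.4 ± 20.2 over all GE libraries, while GLCE had a similar level in pregnant GE (40.0 against 39.2 CPM per kilobase for EXTL3). MUC1 stood at 251 ± 184 CPM per kilobase in LE against 24.3 ± 19.9 for MUC4.

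The cell types were compared within gilts, with the gilt as a block, over the 59 members listed in all 3 tables. Each difference between cell types is the mean of that in control and that in pregnant gilts. Between GE and LE 22 members were called at FDR below 0.01, 6 higher and 16 lower in GE, whereas 10.4% of the 10643 common genes were higher and 10.4% lower (20.8% in all). Thus 10.2% of the members were higher and 27.1% lower in GE. Higher in GE were ST6GAL1, GALNT4, ST6GALNAC2, MGAT4D, FUT1 and GLCE. Lower in GE were both mucins, GCNT1, GALNT3, GALNT10 and GALNT18, the chain enzymes B3GNT2, B3GNT5, B3GNT7 and B4GALT5, MGAT4A, FUT10, ST3GAL6, ST8SIA4, HS6ST1 and NDST1. For B3GNT2, B3GNT7, HS6ST1, MGAT4D and GLCE the pregnancy difference itself differed between LE and GE at FDR below 0.05, as described below. Their mean difference therefore does not hold alike in control and in pregnant gilts.

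**Figure D4:**
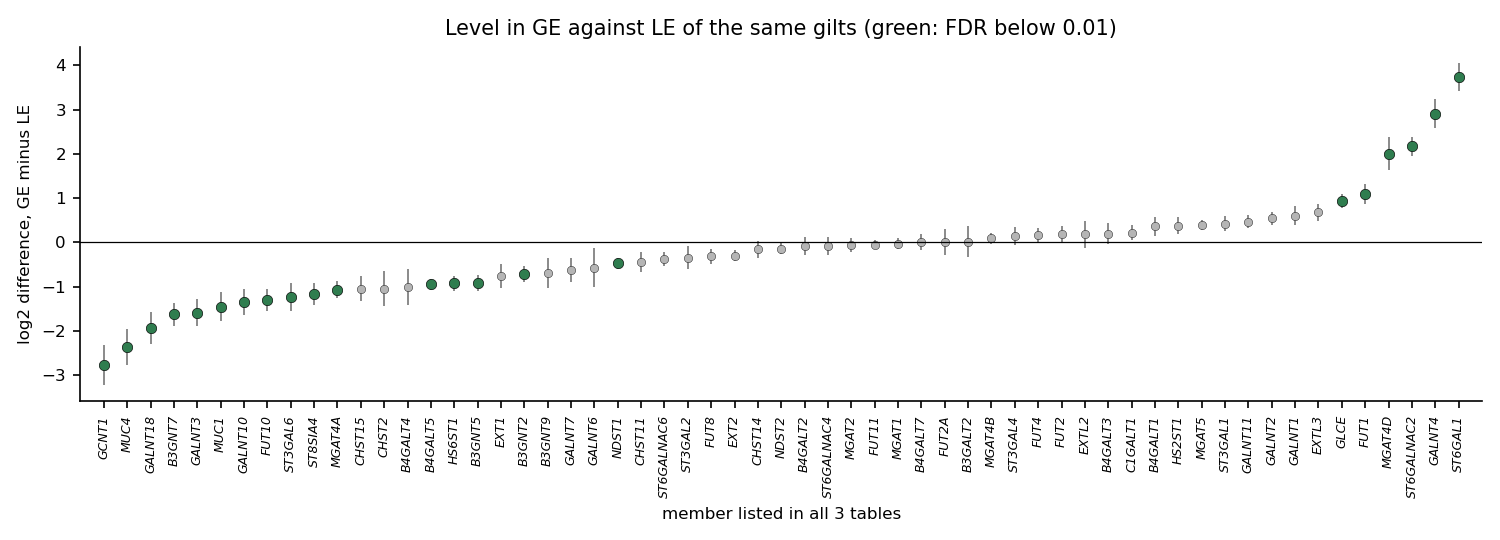
log2 difference between GE and LE (vertical axis, with 1 SE) of the 59 members listed in all 3 tables, sorted. Green points passed an FDR of 0.01 with the gilt as a block, 6 above 0 and 16 below.

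ST6GAL1 had the largest difference of these. Its 8 LE libraries held 4.01 to 22.9 CPM and its 8 GE libraries 33.6 to 382 CPM, without overlap (log2 difference 3.73, SE 0.32, FDR = 3.40e-05). GALNT4 measured 12.7 to 42.1 CPM in LE and 78 to 603 CPM in GE (log2 difference 2.91, SE 0.32, FDR = 7.45e-05). ST6GALNAC2, which sialylates the first sugar of O-glycans, was at 12.3 to 22.6 CPM in LE and 39 to 131 CPM in GE (log2 difference 2.17, SE 0.22, FDR = 5.01e-05), with the reserve that 50.2% of its exon windows are shared with LOC100517116. In the other direction only B3GNT5 had libraries that did not overlap, at 122 to 205 CPM in LE and 50.7 to 120.2 CPM in GE (log2 difference -0.92, SE 0.18, FDR = 0.0015). The share of all genes whose GE and LE libraries did not overlap is not given here. Without gilt 02 the differences were 3.72, 2.94, 2.27 and -0.82 in the same order, and 24 members were called (21.8% of all genes).

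MUC1 and MUC4 were lower in GE than in LE by -1.45 and -2.36 on the log2 scale (FDR = 0.00374 and 0.00085 in edgeR), with libraries that overlapped. For MUC1 the control LE and GE libraries were at 199.7 to 264 and 42.2 to 301 CPM and the pregnant ones at 852 to 1475 and 142 to 263 CPM. GALNT1 was not called between the cell types (log2 difference 0.61, SE 0.22, FDR = 0.0452), and its 4 control LE libraries lay below all control GE libraries (266 to 874 CPM) while the pregnant ranges overlapped. NDST3 was listed in LE and S and was not analysed in GE.

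S differed from LE in 3 of 59 members, all higher in S, against 1.69% of all common genes (1.61% higher, 0.0846% lower). At FDR below 0.05 it was 9 members, against 8.02% of all genes. The 3 members were ST6GAL1 (log2 difference 2.46, SE 0.34, FDR = 0.00243), GALNT4 (2.16, SE 0.34, FDR = 0.00419) and ST6GALNAC2 (1.27, SE 0.24, FDR = 0.00856), each of which was also higher in GE than in LE. Of these GALNT4 had libraries that did not overlap, at 45.6 to 326 CPM in S, with the share of all genes without overlap not given here. Without gilt 01 its difference was 2.38 (FDR = 0.00924 in edgeR). Its call was lost without gilt 02, 04, 05 or 14, with FDR of at most 0.0314. The control S levels of ST6GAL1 given above overlapped its LE range, whereas its pregnant S levels lay above every LE library. Its mean difference therefore need not hold alike in control and in pregnant gilts. The number of called members was 2 without gilt 01, 1 without gilt 02 and 0 without gilt 04 or gilt 05. The share of all genes in these fits is not given here, so that these counts describe the fits alone. Between S and GE edgeR's test called 0 members and 0.00% of all genes, with 20 members (33.9%) at an unadjusted p below 0.05 against 13.2% of all genes. The likelihood ratio test called 0 members too, with its share of all genes not given here.

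Whether pregnancy differences themselves differed between LE and GE was tested as an interaction with the gilt as a block. At FDR below 0.01 it called 0 of 59 members, against 0.395% of all common genes, with 15 members at an unadjusted p below 0.05 (17.3% of all genes). The likelihood ratio test called 7 and voom with a random block 1, with the share of all genes in these fits not given here. At FDR below 0.05 edgeR's quasi-likelihood interaction test held 7 members against 2.93% of all genes. Larger increases in LE than in GE were found for B3GNT2 (difference of log2 FC 1.98, SE 0.35, FDR = 0.0123), GALNT1 (2.04, SE 0.44, FDR = 0.0264), HS6ST1 (1.73, SE 0.35, FDR = 0.0196) and B3GNT7 (2.15, SE 0.53, FDR = 0.0443). In GE their own log2 FC values were 0.45, 0.26, 0.33 and -0.05. The difference had the other sign for MGAT4D, GLCE and B4GALT7, which adds the first galactose of the proteoglycan linker and is named after its values were seen. GLCE had a log2 FC of -0.41 in LE and 1.24 in GE, MGAT4D -2.83 and 0.47, and B4GALT7 -0.66 and 0.76. At the same FDR of 0.01 the interactions of LE with S and of GE with S held 0 members each (0.0188% and 0.00% of all genes), with 17 and 9 members at an unadjusted p below 0.05 against 15.2% and 9.90% of all genes. The likelihood ratio test called 1 and 0 members there, with the share of all genes not given here. MUC1 (log2 FC 2.20 in LE, 0.24 in GE) passed neither threshold between LE and GE (FDR = 0.163 in edgeR).

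**Figure D5:**
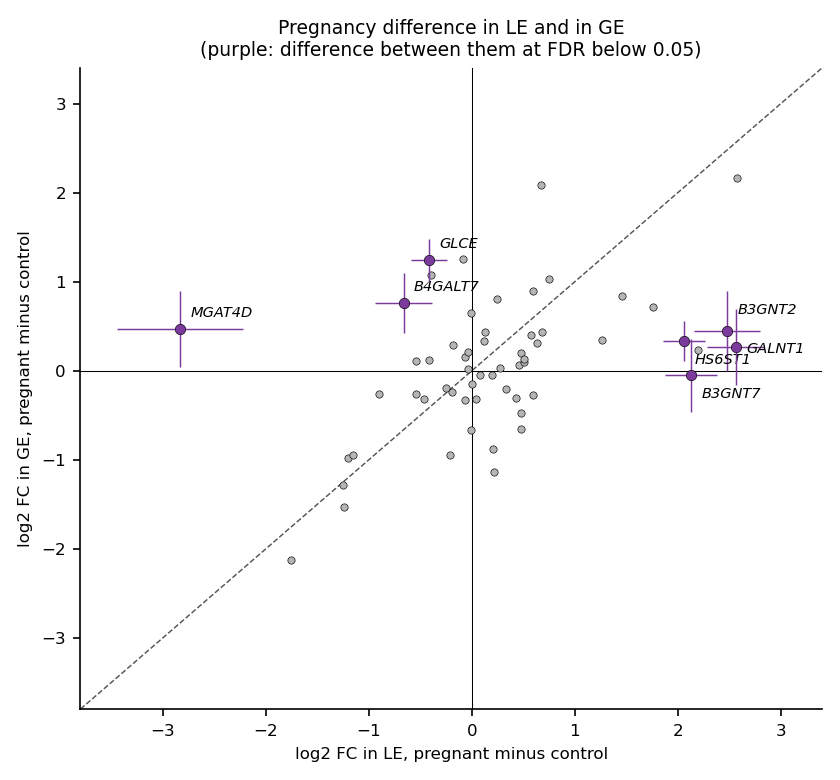
log2 FC of the 59 common members in LE (horizontal axis) and in GE (vertical axis), pregnant minus control. Purple points with bars of 1 SE are the 7 members whose pregnancy difference differed between LE and GE at FDR below 0.05, and the dashed line marks equal values.

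Genes that supply the sugar donors were followed as a separate list of 34, of which 32 were listed in each cell type. In LE 5 of them were higher and none lower in pregnant gilts, against 6.33% and 3.71% of all genes. GFPT1, the rate-limiting enzyme of the hexosamine pathway, had 216 to 241 CPM in control and 326 to 627 CPM in pregnant LE (log2 FC 1.13, FDR = 0.00491). GNE, which commits the cell to sialic acid synthesis, had 25.5 to 61.3 and 180.2 to 285 CPM (log2 FC 2.13, FDR = 0.000709). The Golgi UDP-N-acetylglucosamine transporter SLC35A3 (log2 FC 1.34, FDR = 0.00211), UXS1 of UDP-xylose synthesis (log2 FC 1.40, FDR = 0.000823) and GMPPB of GDP-mannose synthesis (log2 FC 1.69, FDR = 0.0076) were the others. In S, 3 of 32 were higher, against 0.425% of all genes. They were PAPSS2, which makes the sulfate donor (log2 FC 2.45, FDR = 0.0512), UAP1 (log2 FC 1.11, FDR = 0.124) and GMPPB (log2 FC 1.24, FDR = 0.132). In GE 0 of 32 were called, against 0.694% of all genes. The median log2 FC of the list was 0.51 in LE, 0.54 in GE and 0.45 in S, and 26, 26 and 29 of the 32 lay above 0. The medians of all genes were 0.01, -0.02 and 0.08.

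Lists of other glycan genes were counted in the same way, and no test compared the lists. Of all genes, 10.0% were called in LE (6.33% higher, 3.71% lower), 0.694% in GE and 1.47% in S. Of 22 oligosaccharyltransferase and trimming genes RPN1 was the single called gene in LE (log2 FC 0.68, FDR = 0.00647), and the list medians were 0.45, 0.59 and 0.54 in LE, GE and S. Of 33 other glycosyltransferases 26 were listed in LE, with 2 called higher and 2 lower, 0 of 24 were called in GE, and in S 1 of 25 was called, lower. B4GALNT2 of the Sda antigen (log2 FC 1.42, FDR = 0.00359) and B3GALNT1 of globosides (log2 FC 1.49, FDR = 0.00195) were higher in LE. The galactosylceramide synthase UGT8 was among those lower in LE (log2 FC -3.51, FDR = 0.00271). Of the degradation and desulfation genes 1 of 25 listed in LE was called higher and 2 lower, 1 of 24 in GE was called higher and 0 of 25 were called in S. The lysosomal beta-galactosidase GLB1 was higher in LE, with 82.2 to 105 CPM in control and 599 to 725 CPM in pregnant gilts (log2 FC 2.85, FDR = 1.30e-05), and in GE (log2 FC 1.78, FDR = 0.216). The fucosidase FUCA2 was among those lower in LE (log2 FC -0.78, FDR = 0.00657). Of 25 listed proteoglycan and mucin-like cores and lectins in LE, SPP1, the phosphoprotein osteopontin (log2 FC 3.87, FDR = 0.00043), the heparan sulfate proteoglycan SDC4 (log2 FC 1.17, FDR = 0.00543) and the galectin LGALS9 (log2 FC 1.01, FDR = 0.00502) were higher. The proteoglycan AGRN was lower (log2 FC -1.08, FDR = 0.00591), and SPP1 was higher in S (log2 FC 3.19, FDR = 0.0297). The xylose kinase FAM20B was the single called gene of 12 listed linker and chondroitin genes in LE (log2 FC -0.82, FDR = 0.00502).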

How the data were processed

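The authors clipped adapters, removed 5 bases from read starts, used Hisat2 for mapping to Sscrofa 11.1, collapsed PCR copies through molecular identifiers in the adapters and kept genes above a CPM minimum. They deposited 1 table of raw counts per gene for each of LE, GE and S. The step that counted reads, and whether it used strand, is not given in the sources used here. A gene missing from a table was taken as not analysed there. All gene identifiers matched the annotation used here (NCBI Annotation Release 106), while the release used by the authors is not given in the sources used here.

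Counts were fitted per table with TMM scaling in edgeR 4.0.16 (R 4.3.3), by the quasi-likelihood test with Benjamini-Hochberg FDR over all genes, called at FDR below 0.01 in LE and p below 0.0021 in GE and S. Cell types and interactions were fitted jointly over 10643 genes with the gilt as a fixed block, since the labels give the same gilts in each cell type. Samples of 1 gilt deviated together, with median r of 0.257 (LE and GE, 6 of 8 gilts above 0.1), 0.314 (LE and S, 6 of 6) and 0.468 (GE and S, 5 of 6), against -0.08, -0.14 and -0.19 between gilts. Alternatives used the likelihood ratio test, DESeq2 1.42.0, voom with a random block (limma 3.58.1), other scalings and filters, and omission of each gilt. On simulated data with 200 genes changed by 2 on the log2 scale, LE calls found 163 with 0 false calls, GE 145 with 24, S 109 with 35, GE against LE 182 with 2, and the LE against GE interaction 19 with 0. The simulated libraries were drawn independently with no gilt effect, unlike these data, so that the numbers hold only for such libraries. Printed CPM use joint TMM sizes, which differ from the scales of the separate fits by at most 0.03, 0.08 and 0.11 on the log2 scale in LE, GE and S. Levels between genes are per kilobase of merged exons. Totals ranged from 893912 to 4020796 counts, and the value of 3 counts covers counting error only.

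Members, pathway lists and markers were chosen with earlier results of these data known. Genes named are called members, those with the 5 largest called differences per direction between cell types whose libraries did not overlap, GLCE, C1GALT1 and the mucins, the highest per length of each role, and called pathway genes, at most 5 per list, some of which are not reported here. Genes outside this rule are said to be so or stand nearest to a threshold, in a family share or in a count.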

Additional observations from a re-analysis of the deposited data

Results flagged for a closer look

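Of 104 groups of 4 libraries tested for a library far from the others, 6 were picked out, where chance picks about 1 in 20. B3GNT2 was at 54.5 CPM in control LE gilt 02 and at 35.4 to 36.3 CPM in the other controls. B3GNT5 was at 122 CPM in control LE gilt 06, against 159.8 to 167 CPM. Control GE gilt 04 had 8.94 CPM of CHST14, against 13.4 to 14.2 CPM. GALNT4 reached 304 CPM in control GE gilt 13, while the other control GE libraries had 78.0 to 84.3 CPM. For MUC4 pregnant GE gilt 14 had 25.9 CPM, against 70.9 to 83.0 CPM. ST6GALNAC2 was at 12.3 CPM in pregnant LE gilt 05, against 19.3 to 21.9 CPM.

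The pregnancy difference differed between LE and GE at FDR below 0.05 in edgeR's quasi-likelihood interaction test for 7 members. The difference of log2 FC (LE minus GE) was 1.98 for B3GNT2, 2.04 for GALNT1, 1.73 for HS6ST1 and 2.15 for B3GNT7. It was -3.57 for MGAT4D, -1.57 for GLCE and -1.46 for B4GALT7. The FDR ranged from 0.0123 for B3GNT2 to 0.0443 for B3GNT7. When single gilts were omitted, the value for B3GNT2 stayed between 1.71 and 2.13 with FDR of at most 0.046, while the FDR reached 0.0892 for GALNT1, 0.0926 for HS6ST1, 0.147 for B3GNT7, 0.1 for MGAT4D, 0.101 for GLCE and 0.148 for B4GALT7.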

How the results depend on the processing

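Counts of called members depended on the test in GE and S. Where no share of all genes stands beside a count in this section, it is not given here. Such a count describes the fit alone and is no result about the members. In GE (2 called, 0.694% of all genes) the likelihood ratio test gave 4 and DESeq2 6 (2.08% of all genes). The 6 gilts with an S library gave 1 there, and FDR below 0.05 or 0.01 gave 0. In S (3 called, 1.47% of all genes) the counts were 6 by the likelihood ratio test, 5 by DESeq2 (4.45% of all genes) and 0 at either FDR. In LE (12 called) the 6 gilts with an S library gave 7. For S against LE (3 called) the likelihood ratio test gave 8 and FDR below 0.05 gave 9 (8.02% of all genes). For the LE against GE interaction (0 called) the random replicate block gave 1, the likelihood ratio test 7 and FDR below 0.05 7 (2.93% of all genes). For LE against S the likelihood ratio test gave 1. Without the replicate block 17 members were called between GE and LE (22 with it) and 2 between S and LE (3 with it).

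When single gilts were omitted, the counts were 10 to 16 in LE, 1 to 5 in GE, 1 to 5 in S, 16 to 24 for GE against LE, 0 to 3 for S against LE, 0 to 0 for S against GE, 0 to 2 for the LE against GE interaction and 0 to 0 for both others. Apart from these, 169 alternative values of single members kept direction and side of the threshold, 8 gained and 6 lost a call, and none changed direction. Scaling by library size alone shifted the median log2 FC of all genes from 0.01 to -0.14 in LE and that of the LE against GE interaction from 0.03 to -0.11. A minimum of 10 counts in every library kept 60, 59 and 57 members in LE, GE and S and gave 11, 3 and 2 calls, and it left NDST3 out in LE and S.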
